A study of Homo sapiens with 6 samples.

Results

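Transcript levels of FGFR1 and 9 genes that lie around it in the 8p11 band of chromosome 8 were examined in xenografts grown from CRL-5889 cells, an established human line that the labels describe as lung squamous carcinoma. The genes were FGFR1, NSD3, LETM2, DDHD2, PLPP5, BAG4, LSM1, ASH2L, ERLIN2 and TACC1. They were chosen by name, with earlier results of these data known, from a region that is often gained in squamous lung cancer. Every probe set whose platform annotation names exactly 1 of these genes was taken, which gave 50 of 49293 probe sets and 10 of 18132 genes. The implanted cells had been transfected with the TRA2B-DNAH5 fusion (3 tumors) or with vector (3 tumors), and all tumors grew in nude mice and were taken at 4 weeks. Each tumor was measured on 1 Affymetrix array. Both groups come from the same line, and how many transfected populations or clones were implanted is not given in the sources used here. No measurement of DNA copy number was used, so levels cannot be tied to gains of the region here.

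FGFR1 encodes a receptor tyrosine kinase on the cell surface. A fibroblast growth factor, bound together with heparan sulfate, pairs 2 receptors, and the receptor then signals through the docking protein FRS2 to the RAS and ERK kinases and through PLCG1. The signal induces its own brakes, among them Sprouty proteins and dual specificity phosphatases. The genes beside FGFR1 have unrelated roles in chromatin, RNA decay, lipid metabolism and cell death. They are often gained along with FGFR1, so several of them have been studied as candidate drivers of 8p11 gains.

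The array median was lowest in vector tumor 1, at log2 6.27, and lay between 6.34 and 6.39 in the other 5 tumors. Correlations between any pair of the 6 arrays across all probe sets lay between 0.989 and 0.997. Vector tumor 1 stood apart on the first principal component, with a score of 55.8 in size against 2.73 to 14.8 in the other 5 tumors. The genes joined in the fusion gave no check of the labels: TRA2B differed by 0.039 between the groups (fusion minus vector, log2) and DNAH5 by -0.0043, and which parts of them the construct holds is not stated. Of 18 listed squamous markers, 14 had a probe set that names 1 gene, while TP63, KRT6A, KRT6B and KRT17 did not and could not be read. Of the 14, 5 had means under 4.94, the log2 level below which genes were not tested, including the desmosomal cadherins DSG3 and DSC3. The basal keratin KRT5 stood near that level, at the 27.2 percentile of all genes. The 3 above the 75th percentile were GPC1 (81.0), the squamous lineage factor SOX2 (80.3) and PERP (79.7). SOX2 was lower in fusion tumors by an estimate of -0.83 (limma adjusted p = 0.369). These marker genes were singled out after their values were seen.

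Of the 10 genes, 9 were bright. Each gene is represented here by the brightest of its probe sets, judged by the 6-array mean, and its percentile is the share of all 18132 genes at or below its level. TACC1 stood at the 97.6 percentile, FGFR1 at 97.0, BAG4 at 96.1, DDHD2 at 95.4, ASH2L at 92.1, LSM1 just above ERLIN2 at 89.9, PLPP5 at 89.7 and NSD3 at 80.5. LETM2 stood at 13.4, below the filter. The median over the 10 genes was 91.0, and 9 of the 10 lay above the 75th percentile. Over all 50 probe sets, ranked among all probe sets, the median was 83.9 and 33 lay above the 75th percentile. Brightness depends on the probes as well as on the transcript, so these percentiles do not rank the genes by transcript amount.

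**Figure D1:**
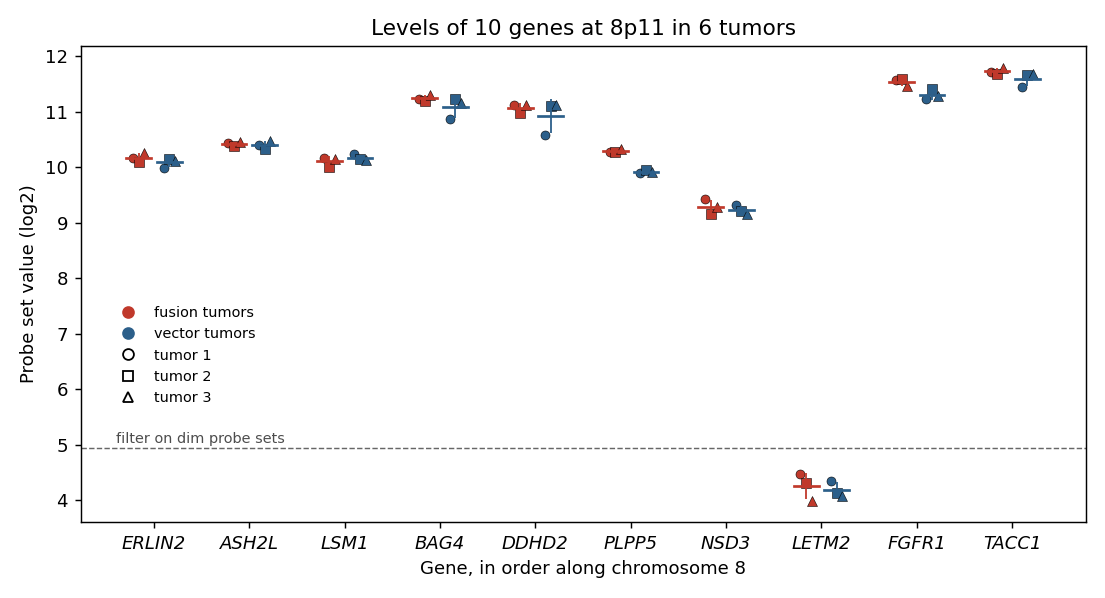
Log2 value of the brightest probe set of each gene in 3 fusion tumors (red) and 3 vector tumors (blue), with genes in their order along chromosome 8; symbols mark the tumor number, short bars the group mean and vertical lines the SD. LETM2 lies below the dashed filter level of 4.94, and PLPP5 and FGFR1 are the genes above it whose groups do not overlap.

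FGFR1, the receptor, was the second brightest of the 10 genes by percentile and read log2 11.57, 11.59 and 11.46 in the fusion group (tumors 1 to 3, the order used throughout) and 11.24, 11.41 and 11.28 in the vector group. All fusion values lay above all vector values, by a small margin. The group means were 11.54 ± 0.070 and 11.31 ± 0.089 (SD, n = 3 each), a difference of 0.23 on the log2 scale (SE 0.093, 95% confidence interval 0.019 to 0.44) or 1.17-fold. The difference did not pass the threshold of adjusted p 0.05 (limma, adjusted p = 0.788 over 13694 genes). The upper end of the interval was 1.36-fold. An exact two-sided permutation test gave p = 0.1, the smallest value that 3 against 3 tumors allow.

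All 7 probe sets of FGFR1 were higher in fusion tumors, with differences from 0.23 to 0.38 and a median of 0.30. In 5 of the 7, every fusion tumor was above every vector tumor, which held in the same direction for 5.94% of all 49293 probe sets. Values of the second brightest probe set were 10.89, 10.81 and 10.64 in fusion tumors and 10.49, 10.61 and 10.27 in vector tumors, while in the probe set with the largest difference they were 9.11, 9.34 and 9.40 against 8.57, 9.26 and 8.87. Vector tumor 1 or vector tumor 3 was the lowest tumor in each of these sets. The 7 probe sets measure the same 6 RNA samples, may share target sequence and are not 7 independent observations. Adjusted over all probe sets, 0 of the 7 passed (smallest limma adjusted p = 0.861), against 0.0101% of all probe sets. An unadjusted limma p below 0.05 was found for 4 of the 7, against 3.10% of all probe sets in the same direction. The mean brightness of the 7 sets spanned 10.4-fold, so the level assigned to FGFR1 depends on the probe set, while the sign of its difference did not.

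**Figure D2:**
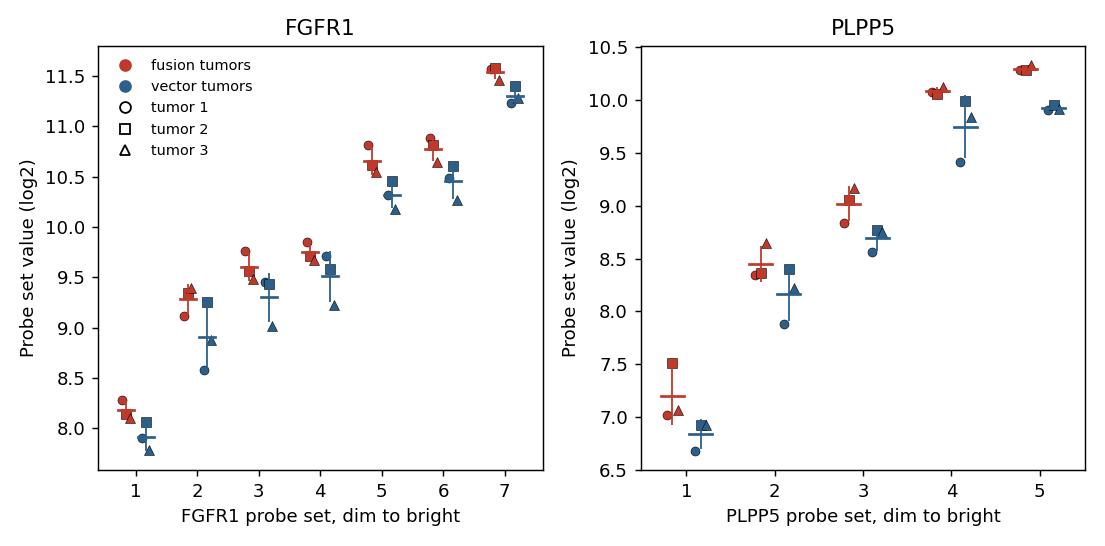
Log2 values of the 7 FGFR1 probe sets (left) and the 5 PLPP5 probe sets (right), from dim to bright, in fusion tumors (red) and vector tumors (blue); symbols mark the tumor number, short bars the group mean and vertical lines the SD. In every probe set the fusion mean lies above the vector mean, by 0.23 to 0.38 for FGFR1 and by 0.28 to 0.37 for PLPP5.

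Among the genes of lipid metabolism, PLPP5, which encodes a phospholipid phosphatase, had the largest difference of the 9 tested genes. Its values were 10.28, 10.28 and 10.33 with the fusion and 9.90, 9.95 and 9.92 with vector. The groups were well separated and each was tight, with means of 10.30 ± 0.028 and 9.92 ± 0.025 (SD, n = 3 each). The difference of 0.37 (SE 0.083, 95% confidence interval 0.18 to 0.56), or 1.29-fold, had an unadjusted p of 0.00175 and did not pass over all genes (limma adjusted p = 0.329). With array weights, which give less weight to arrays that deviate, it did pass (limma adjusted p = 0.0401, difference 0.37); that setting also raised the count of all genes called from 10 to 140. The 5 PLPP5 probe sets differed by 0.28 to 0.37, in the same direction. In 4 of them every fusion tumor was above every vector tumor, which held for 5.94% of all probe sets. As with FGFR1, these probe sets measure the same RNA samples, may share target sequence and are not independent observations.

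DDHD2, a phospholipase, was at 11.12, 10.98 and 11.12 in fusion tumors and at 10.57, 11.10 and 11.12 in vector tumors. Its difference of 0.14 (limma adjusted p = 0.965) was -0.035 without vector tumor 1, the lowest of the 6. The DDHD2 probe sets gave -0.012 to 0.14, 3 above 0 and 1 below. ERLIN2, a membrane protein of the endoplasmic reticulum that takes part in the degradation of activated inositol trisphosphate receptors, was at 10.17, 10.09 and 10.26 in fusion and 9.99, 10.15 and 10.12 in vector tumors. The groups overlapped (difference 0.086, 95% confidence interval -0.13 to 0.30, limma adjusted p = 0.965). The difference was 0.038 without vector tumor 1, 0.043 without fusion tumor 3 and 0.23 in its most variable probe set. Of the 10 ERLIN2 probe sets, 9 were higher in fusion tumors, and their mean levels ran from 4.00 to 10.13. In 3 of them the mean lay below the filter level.

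The chromatin genes differed little. NSD3, a histone methyltransferase, was at 9.42, 9.17 and 9.28 in fusion tumors and 9.31, 9.22 and 9.16 in vector tumors, and the groups overlapped (difference 0.056, 95% confidence interval -0.17 to 0.29, limma adjusted p = 0.983). Its sign turned to -0.0098 without fusion tumor 1. The 4 NSD3 probe sets, whose mean levels spanned 1.20-fold, gave 0.027 to 0.17. ASH2L, a core subunit of the complexes that methylate lysine 4 of histone H3, was at 10.45, 10.39 and 10.45 in fusion tumors and 10.41, 10.33 and 10.47 in vector tumors. These values overlapped and gave a difference of 0.026 (95% confidence interval -0.17 to 0.22, limma adjusted p = 0.990). The other ASH2L probe set gave -0.041, and median centring of the arrays also turned the sign, to -0.0034.

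LSM1, a subunit of the ring that binds mRNA ends for decapping and decay, was the only tested gene of the 10 with a negative difference. It has 1 probe set, which was at 10.17, 10.01 and 10.15 in fusion tumors and 10.24, 10.15 and 10.14 in vector tumors. The groups overlapped, and the difference was -0.065 (95% confidence interval -0.27 to 0.14, limma adjusted p = 0.982). It was -0.014 without fusion tumor 2 and -0.034 without vector tumor 1. BAG4, a co-chaperone that inhibits signalling from death domain receptors, was at 11.24, 11.20 and 11.31 against 10.87, 11.24 and 11.15. Vector tumor 1 was again the lowest, and the difference of 0.16 (95% confidence interval -0.097 to 0.42, limma adjusted p = 0.962) became 0.055 without it. The 3 BAG4 probe sets, whose mean levels spanned 8.10-fold, gave -0.018 to 0.25, 2 above 0 and 1 below. TACC1, a coiled-coil protein linked to microtubules, was at 11.72, 11.69 and 11.80 against 11.44, 11.67 and 11.69. It too was lowest in vector tumor 1, with a difference of 0.13 (95% confidence interval -0.096 to 0.37, limma adjusted p = 0.962) that became 0.055 without that tumor. The 9 TACC1 probe sets gave -0.029 to 0.21, 8 above 0 and 1 below. Their mean levels ran from the 8.32 to the 98.3 percentile of all probe sets.

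LETM2, a relative of the mitochondrial ion exchanger LETM1, was dim in both groups and was not tested among genes. All 5 of its probe sets had means below the filter level, from 3.72 to 4.22. Their differences pointed both ways, from -0.26 to 0.25, with 3 above 0 and 2 below. A background level is not known for these arrays, so a low LETM2 transcript level cannot be told from none.

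**Figure D3:**
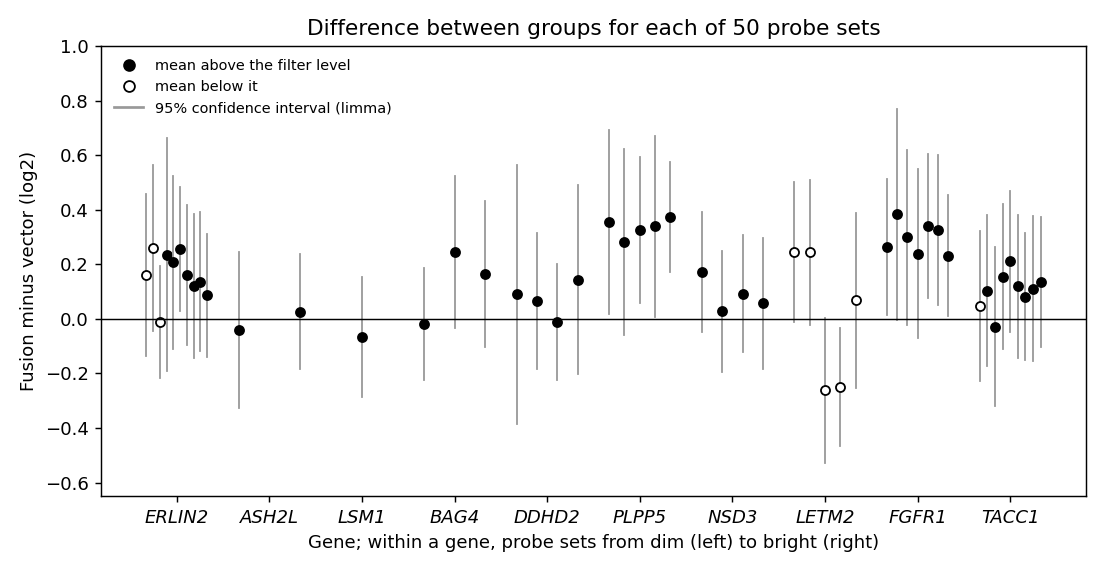
Difference between fusion and vector tumors (log2) for each of the 50 probe sets, grouped by gene in chromosome order and sorted from dim to bright within a gene; vertical lines are 95% confidence intervals from limma over all probe sets, and open circles are probe sets with a mean below the filter level. All FGFR1 and PLPP5 points lie above 0, and the 5 LETM2 points fall on both sides.

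Counted over the tested genes, limma called 0 of 9, against 0.0730% of all 13694 genes at the same threshold (10 genes). At an unadjusted p below 0.05, 2 of 9 were higher (PLPP5 and FGFR1) and 0 lower, against 3.16% higher and 2.73% lower over all genes. That count of 2 was 1 (PLPP5) when any of 4 tumors was left out (fusion tumors 1 and 2, vector tumors 1 and 3) or arrays were centred on their medians. It was 0 when genes were represented by their most variable probe set. The same 2 genes had fusion values all above vector values, which held for 5.94% of all genes, and 0 had them all below, which held for 5.74%. The difference was above 0 in 8 of 9 genes, against 50.8% of all genes, and the median was 0.13 against 0.0020. Without vector tumor 1 it was above 0 in 7 of 9, with a median of 0.055. Over all 50 probe sets, 42 were above 0, where 52.8% of all probe sets were, and 38 were without vector tumor 1. Fusion lay above vector in every tumor in 14 probe sets, 9 of them of FGFR1 and PLPP5, and below in 2, both of LETM2, against 5.94% and 4.90% of all probe sets. By the same test 0 of 50 were called, against 0.0101% of all probe sets, with 9 higher and 1 lower at an unadjusted p below 0.05, where 3.10% and 2.13% of all probe sets were. The 10 became 3 without vector tumor 3, 5 without fusion tumor 2 and 6 without vector tumor 1.

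Averaged over the 9 tested genes, the level was 10.68, 10.60 and 10.68 with the fusion and 10.44, 10.58 and 10.56 with vector. Vector tumor 1, whose array also had the lowest median over all probe sets, had the lowest average and was the lowest tumor for 6 of the 9 genes. Without it the differences of FGFR1 and PLPP5 were 0.20 and 0.36, with limma adjusted p = 0.593 and 0.186.

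Along chromosome 8 many bright genes lay near each other around FGFR1. From ERLIN2 to TACC1 the RefSeq gene order of GRCh38.p14 holds 19 genes with a probe set, and 12 of them were above the 75th percentile of all genes. In the 20 genes before ERLIN2 this held for 3, and in the 20 genes after TACC1 for 6, where 25.2% of chromosome 8 genes were that bright. Of the 12 bright genes of the span, 9 were from the set itself, whose outermost genes also fix the ends of the span. Among the 9 genes of the span that are not in the set, 3 were above the 75th percentile (33.3%). They were EIF4EBP1, an inhibitor of cap-dependent translation (97.8 percentile), PLPBP, a pyridoxal phosphate binding protein (91.0), and BRF2, a subunit of an RNA polymerase III initiation factor (75.5), while genes of restricted expression such as ADRB3 and STAR were dim. PLPBP had a difference in the opposite direction to FGFR1 and PLPP5, at 10.23, 10.03 and 10.22 in fusion tumors and 10.35, 10.42 and 10.38 in vector tumors (-0.22, limma adjusted p = 0.829).

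A running median over 11 neighbouring genes reached the 95.4 percentile around FGFR1. That window ran from BAG4 to TM2D2 and held 7 of the 10 genes, the bright PLEKHA2 and TM2D2, and the dim LINC03042 and HTRA4. No other window on chromosome 8 (618 windows) or on any chromosome (17865 windows, which overlap) had a higher median. The width was chosen after the data were seen. With 21 genes the FGFR1 window (89.7) also had 0 windows above it, while with 7 genes (89.7) 176 of 17961 windows were higher, which is 0.980%. With the mean of all probe sets of a gene in place of the brightest, the median around FGFR1 was 88.4, and 0.347% of all 11-gene windows were higher. The rank of the region thus moved with the width and with the choice of probe set.

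**Figure D4:**
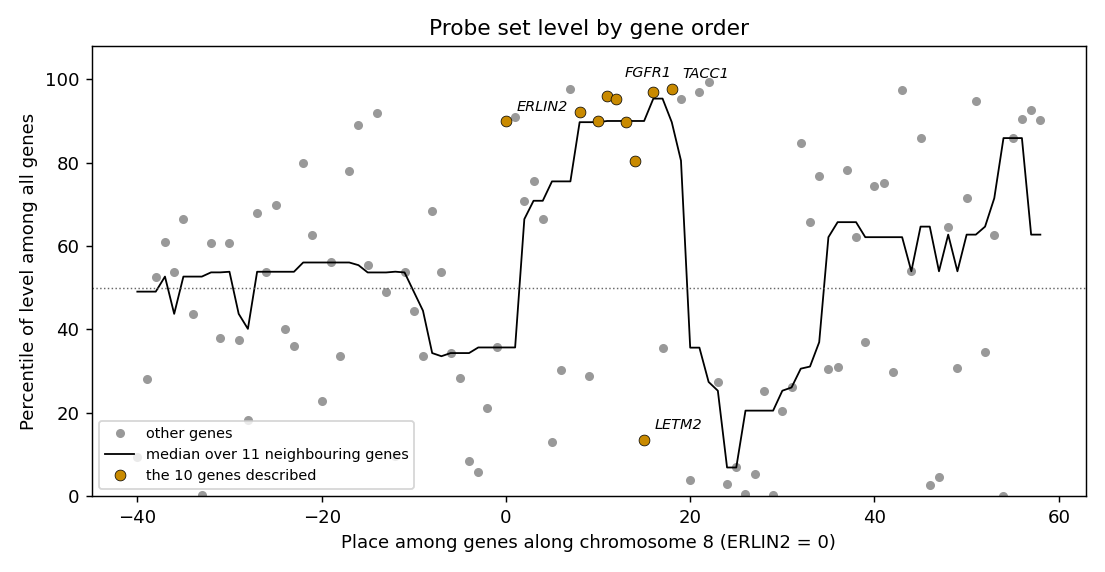
Percentile of each gene's level among all 18132 genes, against its place among genes with a probe set along chromosome 8 counted from ERLIN2; the 10 genes are in gold, others in grey, and the line is the median over 11 neighbouring genes. The line climbs from 35.7 at ERLIN2 to 95.4 at FGFR1 and is back at 35.6 at HTRA4, after TACC1.

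Among 44 other genes listed from 8p12 to 8p11, 34 were tested and 0 were called in either direction. Of these, 19 were above 0 and 15 below, with a median difference of 0.016, and the difference between the 2 lists was not tested. The brightest were ADAM9, a membrane protease (99.2 percentile), EIF4EBP1 (97.8), VDAC3, a channel of the outer mitochondrial membrane (97.5), TM2D2 (96.9) and PLEKHA2, an adaptor with pleckstrin homology domains (95.4). PLEKHA2, next to TACC1, was at 11.25, 11.03 and 11.11 in fusion tumors and 10.56, 11.03 and 11.04 in vector tumors. It was low in vector tumor 1 in the same way as DDHD2. The smallest p in the list was that of SLC20A2, a phosphate transporter (difference 0.30, limma adjusted p = 0.658), and ADGRA2, an adhesion receptor, differed by 0.23.

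Of the other FGF receptors, FGFR3 and FGFR2 had larger estimated differences than FGFR1, with larger standard errors, and neither passed the test. FGFR3 was at 10.30, 10.01 and 10.24 in fusion tumors and 8.58, 9.63 and 9.98 in vector tumors, with 0.78 as difference (SE 0.31, limma adjusted p = 0.780). The fusion tumors were all above the vector tumors, of which tumor 1 was far the lowest. FGFR2 was dim, at 5.85, 6.03 and 5.76 against 5.21, 5.66 and 5.39 (difference 0.46, limma adjusted p = 0.526). FGFR4 differed by 0.14 and FGFRL1, a relative without a kinase domain, by -0.069, and the heparan sulfate proteoglycan SDC2 by -0.20. The co-receptors KL and KLB of the hormone-like FGFs were below the filter. In the list of FGF receptors and co-receptors, 7 of 10 tested genes were above 0 (median 0.17), against 50.8% of all genes, and 0 were called.

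Of 25 FGF ligands and binding proteins, 14 passed the filter and 0 were called (9 above 0, median 0.059). FGF5 was the brightest, at the 94.6 percentile, with 10.80, 11.19 and 11.02 in fusion tumors and 10.94, 10.54 and 10.50 in vector tumors. Its difference was 0.35, and the groups overlapped (limma adjusted p = 0.836). FGF2, a ligand of FGFR1, was at 7.69, 8.23 and 8.08 against 7.27, 7.53 and 7.78 (difference 0.47, limma adjusted p = 0.708). FGF17 and FGF6 differed by 0.18 and 0.19.

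Of 25 listed adaptors and kinases downstream of the receptor, 18 had a probe set that names 1 gene, and FRS2 was not among them. Those 18 lay close to 0: 10 were above 0 and 8 below, the median was 0.030 and 0 were called. PLCG1, the phospholipase that binds the activated receptor, differed by 0.19, AKT2 by 0.12, the phosphatase PTPN11 by 0.15 and HRAS by -0.12. Among 18 tested targets and feedback inhibitors, 15 were above 0, against 50.8% of all genes, with a median of 0.13. Again 0 were called, against 0.0730% of all genes, and the list as a whole was not tested. The phosphatases DUSP5 and DUSP6 had differences of 0.82 and 0.76 (limma adjusted p = 0.376 and 0.614), and DUSP6 was lowest in vector tumor 1, at 8.16. The related DUSP4 differed by -0.14, and the Sprouty genes SPRY1, SPRY2 and SPRY4 by -0.11, 0.029 and 0.012. FLRT2, a membrane protein of a family that binds FGF receptors, was at 8.33, 7.74 and 7.85 in fusion tumors and 7.40, 7.68 and 7.04 in vector tumors (difference 0.60, adjusted p = 0.656 by limma). FOSL1, an AP-1 subunit, differed by 0.27.

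**Figure D5:**
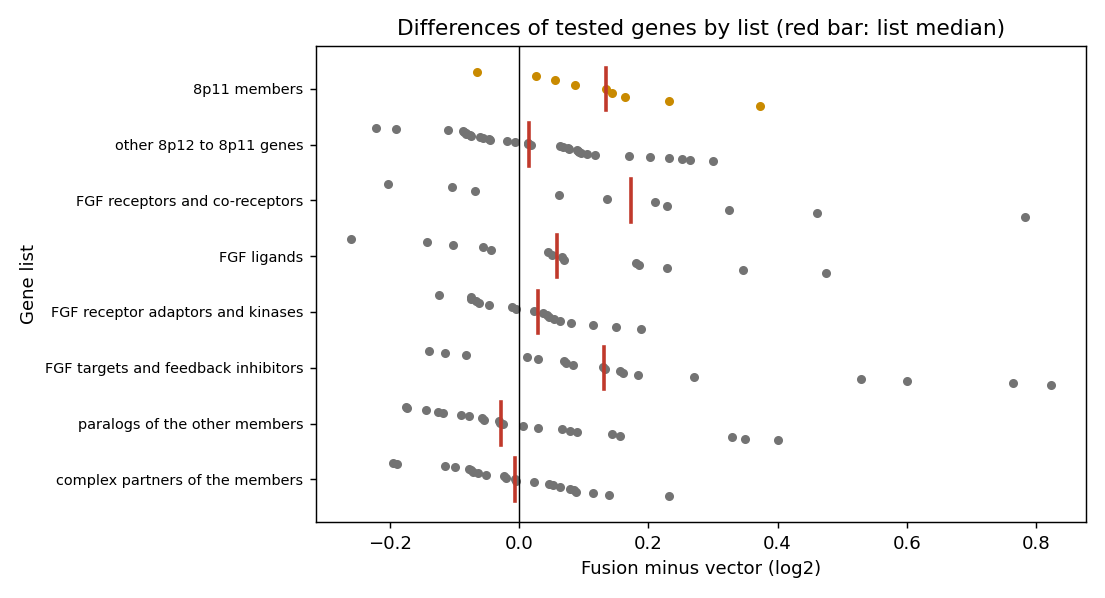
Difference between fusion and vector tumors (log2) of every tested gene (points) in 8 gene lists, with the list median as a red bar; the 9 tested genes of the 8p11 set are in gold. The medians are 0.13 for the 8p11 set and 0.016 for other genes from 8p12 to 8p11, and the FGF target and receptor lists hold the points farthest above 0.

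Paralogs and partners of the neighbours of FGFR1 had medians near 0. Of 22 tested paralogs, 10 were above 0 and 12 below, with a median of -0.027 and 0 called. BAG3, a co-chaperone related to BAG4, was at 11.47, 11.63 and 11.69 in fusion tumors and 11.15, 11.30 and 11.30 in vector tumors (difference 0.35, limma adjusted p = 0.523), while BAG2 differed by -0.17. SEC23IP, a phospholipase-like relative of DDHD2, differed by 0.40 and TACC2 by 0.33. Of 23 tested partners, 10 were above 0 and 13 below (median -0.0067, 0 called). RBBP5, which sits beside ASH2L in the histone H3 methyltransferase complexes, differed by -0.20, and CKAP5, a microtubule polymerase that binds TACC proteins, by -0.19. ITPR3, an inositol trisphosphate receptor, and DCP2, the decapping enzyme, differed by 0.14 and 0.23.

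Markers of other cell types were read in the same tumors, and 0 genes were called in any of these lists. The fibroblast list, with 12 genes with a probe set and 3 of them below the filter, had means of 6.78 to 6.86 in fusion tumors and 6.61 to 6.78 in vector tumors, and vector tumor 1 was lowest. Of its 9 tested genes 6 were above 0 and 3 below (median 0.20). FAP had the largest positive difference (0.91, limma adjusted p = 0.202) and FBN1 the largest negative one (-0.50, limma adjusted p = 0.514). Fusion lay above vector in every tumor in 4 of the 9: FAP, COL1A1 (0.65), THY1 (0.36) and COL1A2 (0.24). It lay below in 1, FBN1, against 5.94% and 5.74% of all genes. The same 4 and 1 had an unadjusted limma p below 0.05, against 3.16% higher and 2.73% lower over all genes. LUM and DCN, which mark fibroblasts, were below the filter level in the mean of the 6 arrays. PDGFRA, in the same list, stood at the 99.5 percentile of all genes and differed by -0.15. Skeletal muscle markers were highest in vector tumor 1, with a list mean of 6.13, and next in fusion tumor 2, with 5.94. The rest of the tumors had means of 5.14 to 5.45. Adipocyte list means were 5.64 to 5.71 with the fusion and 5.79 to 5.92 with vector, endothelial means 5.36 to 5.42 and 5.31 to 5.41, and leukocyte means 5.01 to 5.07 and 5.01 to 5.02. Of the 9 leukocyte markers the 4 tested were all above 0. The 5 below the filter were all below 0: PTPRC (-0.017), CD14 (-0.19), CD163 (-0.019), LYZ (-0.16) and S100A8 (-0.35). Among the 4 tested, the macrophage marker CD68 ran from 8.31 to 8.73 with the fusion and from 7.68 to 7.78 with vector (difference 0.80, limma adjusted p = 0.112). The arrays carry human probe sets in tumors with mouse stroma. The part of host RNA, of cell type makeup and of the muscle signal in vector tumor 1 and fusion tumor 2 in these differences was not tested. In bulk tumors, fewer cells of a type and less RNA per cell cannot be told apart.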

How the data were processed

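The authors deposited log2 probe set values, 1 column per array, for 6 tumors. That they are log2 follows from their range. Which normalization, summarisation or software made them is not given in the sources used here. Gene names came from the platform annotation: 44988 probe sets named 1 gene, 1832 several and 2473 none here. All 10 genes were found by symbol in a RefSeq gene list for the GRCh38.p14 assembly, used for gene order only. For each gene the probe set with the highest mean was used, and genes whose mean lay below the 30th percentile of probe sets (log2 4.94) were left out, which left 13694 of 18132.

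Two-sided tests of the difference between groups came from lmFit and eBayes (limma 3.58.1, R 4.3.3), adjusted by the Benjamini-Hochberg method over all genes, with a threshold of 0.05; a second fit used all 49293 probe sets without a filter. Differences are fusion minus vector. The script was tested on simulated data. Plots used matplotlib 3.10.9 under Python 3.11.15. The labels call tumors biological replicates without naming the mice. The p-values thus weigh each difference only against the variation among these tumors, which eBayes pools in part over genes. The number of arrays limits the precision. Alternatives covered the filter, probe set choice, normalization, model, replicate number, threshold and each tumor left out.

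The 10 genes and 16 lists were chosen with earlier results of these data known. Named genes were the 10 genes, TRA2B and DNAH5, the FGF receptors, up to 4 genes with the smallest p from each list other than the marker lists and the 5 brightest other genes from 8p12 to 8p11. Genes named beyond this (the marker genes, DUSP4, SPRY1, SPRY2, SPRY4, KL, KLB, BRF2, ADRB3, STAR, LINC03042 and HTRA4) were chosen after their values were seen.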

Additional observations from a re-analysis of the deposited data

How the results depend on the processing

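The count of called genes among the 9 tested stayed 0 under every alternative but array weights, where it was 1 (PLPP5), and 0 probe sets of the 50 were called under any alternative run. Tumors left out in turn gave 0 to 0 genes and 0 to 0 probe sets called. FGFR1 kept a difference of 0.15 to 0.38 (limma adjusted p from 0.459 to 1.00) and PLPP5 one of 0.33 to 0.39 (0.0401 to 1.00), and BAG4, ERLIN2, TACC1 and LSM1 also kept their sign throughout. ASH2L turned to -0.0076 with the mean of probe sets, -0.041 with the most variable probe set, -0.0034 with median centring and -0.012 without vector tumor 2, in a range of -0.012 to 0.059 over tumors left out. DDHD2 turned to -0.035 without vector tumor 1 (range -0.035 to 0.24) and NSD3 to -0.0098 without fusion tumor 1 (range -0.0098 to 0.12). The count over all genes, 10, was 1 with the filter at the 50th percentile, 16 with the mean of probe sets, 6 with the most variable probe set, 140 with array weights and 2 at an adjusted p of 0.01. It ran from 0 (without fusion tumor 1, with 667 at an unadjusted p below 0.05) to 37 (without vector tumor 1) when tumors were left out, and was 3 without any of the other 4. The cause was not tested.

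The median level percentile of the 10 genes, 91.0, was 86.1 among genes past the 50th percentile filter, 89.3 with the mean of probe sets and 85.6 with the most variable probe set. With the replicate number as a block, 0 of the 9 genes were called (smallest limma adjusted p = 0.431) and 8 over all genes. The numbers were not taken as pairs because the labels tie same-numbered tumors to no shared animal or day. Deviations of same-numbered tumors correlated at 0.097, 0.17 and 0.051 across genes, and those of differently numbered tumors at -0.14 to -0.018. Every tumor thus correlated best with its own number, and whether the numbers mark pairs was not tested.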
